A study of Mus musculus with 7 samples.

Results

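Transcription termination site (TTS) regions are stretches of open chromatin that the deposited annotation places at the end of a transcript, rather than at a promoter, in an exon, in an intron or between genes. They were chosen by that annotation alone, as every region whose class begins with TTS, and they number 2726 of the 61288 regions in the deposited table (4.45%). Open chromatin was measured by ATAC-seq, in which the Tn5 transposase inserts adapters where DNA is not covered by nucleosomes, in Tomato-positive β cells sorted from the islets of male mice. The 4 Control libraries came from mice that were Chd3+/+ and Chd4+/+, and the 3 Chd3/4Δβ libraries from mice that were Chd3 fl/fl and Chd4 fl/fl, all with the R26 LSL-tdTomato reporter and the MIP-CreERT transgene. Both groups carried the same tamoxifen-inducible Cre, driven by the mouse Ins1 promoter, and both received tamoxifen for 2 weeks from 4 weeks of age. Every library is recorded at 4 weeks after the last dose, when the study also assessed loss of the proteins. By these records both groups share the schedule and the age at collection. The MIP-CreERT line is itself known to influence β-cell function. Whether each library is a different animal is not stated in the labels, and the p-values therefore cover the variation among the libraries and perhaps no more.

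At the end of a gene, RNA polymerase II passes the polyadenylation signal, the transcript is cut and the polymerase leaves the template. Chromatin around such ends can be open where cleavage and termination factors gather, where an enhancer lies behind or inside the gene, or where the promoter of a neighbouring gene begins. CHD3 and CHD4 are alternative ATPases of the NuRD complex, which slides nucleosomes and removes histone acetylation. The comparison asks where accessibility differs in β cells that lack both.

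The class was first set against an independent gene table, the RefSeq annotation of GRCm38.p6. The centre of 582 TTS regions lay between 100 bases before and 1000 bases after the 3′ end of a RefSeq gene, and in 203 of the 220 of these whose transcript could be tied to a symbol it was the end of that same gene. Another 145 lay as close to the edge of a gene whose strand the table does not give, 1698 (62.3%) lay inside a gene and 301 outside any gene. Most TTS regions thus marked the annotated end of a transcript within a gene and not the end of the RefSeq gene. Each region names a different Ensembl transcript. Genes are named below by that transcript for 1310 regions, by the RefSeq gene at the position for 1272 and by the nearest transcription start site (TSS) for 115, and 29 regions have no gene name. Coordinates are printed as deposited and were read as GRCm38 because of this match, although the submitters' notes name GRCm39.

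Some TTS regions also held a whole promoter window of the RefSeq table. Their sequences are shown because these regions were among the most accessible of the class and none was called lower. The Ins2 region, which was called lower, contains that whole gene but no such window, so it is not among them. In 45 TTS regions a whole RefSeq promoter window of 300 bases lay inside the region, 54 windows in all. The first 3 windows below lie in regions that rose in Chd3/4Δβ and the last in a region that was not called. They are from RefSeq (GRCm38.p6), printed on the strand of the named gene, with capitals marking the GC box, GGGCGG, and the element known by its letters as CCAAT, on either strand.
Shisa7, chr7:4844647-4844946 (minus strand): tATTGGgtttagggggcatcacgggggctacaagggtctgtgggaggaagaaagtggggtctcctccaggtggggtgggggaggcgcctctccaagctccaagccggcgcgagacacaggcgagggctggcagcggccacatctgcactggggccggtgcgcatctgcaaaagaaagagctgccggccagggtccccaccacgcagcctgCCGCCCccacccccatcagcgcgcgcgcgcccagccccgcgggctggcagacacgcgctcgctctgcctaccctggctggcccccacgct
Necab3, chr2:154558804-154559103 (minus strand): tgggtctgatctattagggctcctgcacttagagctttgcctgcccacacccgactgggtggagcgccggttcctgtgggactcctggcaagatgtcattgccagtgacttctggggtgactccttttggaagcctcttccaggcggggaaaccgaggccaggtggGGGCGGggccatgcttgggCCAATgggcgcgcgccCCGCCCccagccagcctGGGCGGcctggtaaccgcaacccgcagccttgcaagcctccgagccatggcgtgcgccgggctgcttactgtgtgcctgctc
Fuca2, chr10:13500778-13501077 (plus strand): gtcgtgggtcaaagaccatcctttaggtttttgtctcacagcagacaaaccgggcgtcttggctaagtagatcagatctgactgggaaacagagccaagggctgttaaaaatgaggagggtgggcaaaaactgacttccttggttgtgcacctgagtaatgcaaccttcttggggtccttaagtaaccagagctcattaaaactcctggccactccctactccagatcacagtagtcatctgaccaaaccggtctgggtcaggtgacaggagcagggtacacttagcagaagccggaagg
Fam102a, chr2:32535109-32535408 (plus strand): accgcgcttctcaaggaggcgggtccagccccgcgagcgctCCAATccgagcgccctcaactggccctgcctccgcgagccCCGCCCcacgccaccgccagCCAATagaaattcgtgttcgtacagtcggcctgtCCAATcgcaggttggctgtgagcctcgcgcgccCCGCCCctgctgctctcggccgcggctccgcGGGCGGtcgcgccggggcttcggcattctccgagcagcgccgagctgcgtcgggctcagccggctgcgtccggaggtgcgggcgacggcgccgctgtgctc
The Shisa7 window lies in the region assigned to the end of Isoc2b, and the Necab3 window in the region assigned to the end of E2f1, a regulator of entry into S phase. The Fuca2 window holds neither. Of the 54 windows 55.6% held GGGCGG, against 35.7% of the 32851 windows in the RefSeq table. CCAAT was in 37.0% against 37.4%, and the poly(A) signal AATAAA in 16.7% against 19.6%, also on either strand. The median GC content was 60.7% in the 54 windows and 52.7% in all windows. A match describes the letters of a window and is not a bound site.

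Of the miRNA genes with a hairpin and a mature sequence in the RefSeq sequence table, 10 had a hairpin overlapping a TTS region, and they encode 12 mature sequences with 12 different seeds. The mature sequences from the 4 of these regions that were called are shown because a seed sets which messages a miRNA can pair with. They are from RefSeq (GRCm38.p6), with the seed, bases 2 to 8, in capitals.
mmu-miR-6349, hairpin at chr1:39186896-39186992: uGGAAUGUgggaggggcaugcg
mmu-miR-6393, hairpin at chr15:87795850-87795943: cUGCCCACgaagcacacugagu
mmu-miR-496b, hairpin at chr19:16314892-16315004: cAACAUGGccaauuccuuucau
mmu-miR-6413, hairpin at chr10:20297581-20297688: uGGCUCAGaagagcagguagu
The regions of the first 3 rose and that of the last fell.

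The library sizes behind the CPM (the counts of a region scaled to a common library size) were 17629713 to 42439029 counts in Control and 17772951 to 44026681 in Chd3/4Δβ, and 288941 to 732033 counts per library lay in TTS regions. The table lists only the 55.9% of 109675 regions that the authors called different between these groups, so each count of calls below is a count among regions already selected on this contrast. No listed region has Chd3 or Chd4 as its nearest gene, and the targeted genes could not be checked. Regions nearest to 10 β-cell genes summed to 1026 to 1253 CPM in Control and 491 to 838 CPM in Chd3/4Δβ. Regions nearest to 7 α-cell genes summed to 85.7 to 96.3 and 132 to 157 CPM, those of 3 of 4 δ-cell genes (none at Hhex) to 43.3 to 44.7 and 87.3 to 90.0 CPM, and those of 5 of 6 endothelial genes (none at Tie1) to 54.8 to 59.7 and 72.4 to 110 CPM. Those of 4 of 5 mesenchymal genes (none at Col3a1) to 9.33 to 11.3 and 28.0 to 39.2 CPM, those of 3 of 5 immune genes (none at Cd68 and Csf1r) to 13.97 to 15.2 and 20.8 to 40.0 CPM, and those of 3 of 8 acinar genes (none at Amy2a5, Cel, Cpa1, Prss2 and Ptf1a) to 4.60 to 5.40 and 17.7 to 23.3 CPM. The groups overlapped in the other marker sets. Regions nearest to 5 ductal genes summed to 89.2 to 96.5 and 92.4 to 135.8 CPM. Those of 2 of 4 glial genes (none nearest to S100b and Sox10) summed to 7.22 to 9.47 and 6.19 to 12.7 CPM. The 1 region of 2 PP- or ε-cell genes (none at Ppy) had 2.965 to 5.445 and 2.476 to 3.567 CPM. The part of these cell types in the results was not tested. In bulk samples more cells of a type and more signal per cell cannot be told apart. Among the column names, those of Control replicates 1 to 3 share a lane tag, that of Chd3/4Δβ replicate 3 has a different one, and the others have none. No lane tag is common to both groups. Whether the tags mark separate runs is not stated, and a tag and the genotype cannot be told apart.

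TTS regions differed between the groups in both directions. A region was called at an adjusted p under 0.05 with a log2 fold change of at least 1 in size (edgeR quasi-likelihood test, Benjamini-Hochberg). By this rule 929 TTS regions (34.1%) were higher in Chd3/4Δβ, against 37.0% of all listed regions, and 673 (24.7%) were lower, against 20.4%. Intron regions had 34.96% higher and 24.02% lower, close to the TTS shares, so these shares are not particular to TTS regions. Exon regions had 27.6% higher and 19.67% lower, and promoter regions 22.05% and 8.942%. Of all listed regions 57.4% passed in either direction, and 1124 TTS regions passed in neither. Without the fold threshold 1264 TTS regions were higher and 1380 lower, beside 52.6% and 44.9% of all listed regions. The median CPM of the regions that rose was 0.754 to 0.794 in the Control libraries and 2.81 to 3.54 in the Chd3/4Δβ libraries. The median of those that fell was 2.73 to 3.06 in Control and 0.863 to 1.24 in Chd3/4Δβ. Changes of 4-fold or more were mostly gains, with 444 regions higher and 104 lower, or 16.3% and 3.82% of TTS regions beside 17.9% and 2.87% of all listed regions. The groups did not overlap in 2388 TTS regions (87.6%), beside 88.0% of all listed regions.

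**Figure D1:**
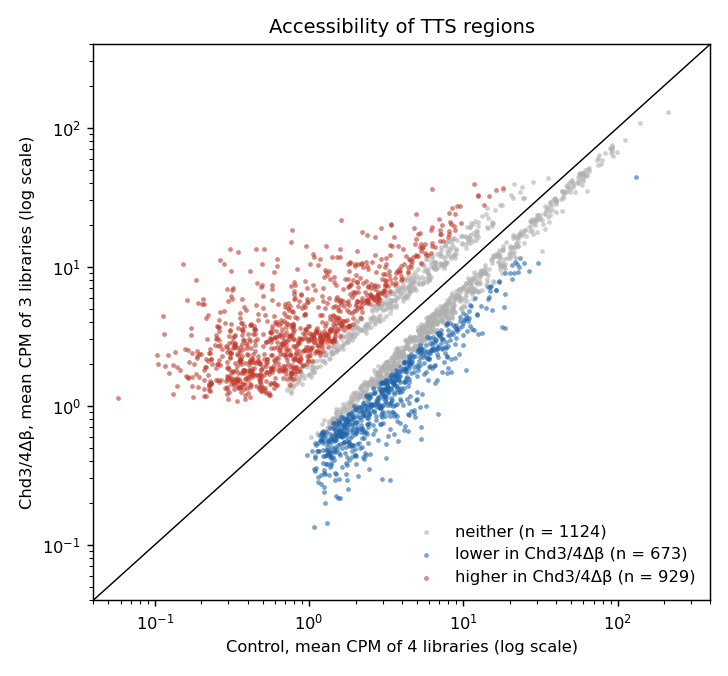
Mean CPM of each TTS region in the 4 Control libraries (x axis, log scale) and in the 3 Chd3/4Δβ libraries (y axis, log scale), with the line of equal values. Colours mark 929 regions called higher, 673 lower and 1124 neither, and the empty band along the line is where regions not listed by the authors would lie.

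The balance of gains and losses turned with the scaling of the libraries. With the library sizes behind the CPM, 58.0% of the called TTS regions were higher. TMM factors gave 812 higher and 904 lower (47.3% higher), RLE factors 745 and 1032 (41.9%), and cyclic loess 578 and 833 (41.0%). Over all listed regions the share was 64.5%, 53.1%, 48.0% and 47.2% in the same order, and the last 3 scalings shifted the median of all listed regions by -0.21, -0.31 and -0.42 on the log2 scale. Which direction was the more frequent among TTS regions therefore depends on the scaling. The median log2 fold change was -0.40 in TTS regions and 0.56 in all listed regions, but it lies near the empty band between the regions that rose and those that fell.

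TTS regions kept a similar share of the reads. They took 3.54%, 3.50%, 3.51% and 3.29% of the counts in listed regions in the Control libraries and 3.35%, 3.39% and 3.33% in the Chd3/4Δβ libraries. Control replicate 4 lay below every Chd3/4Δβ library, so the groups overlapped. Promoter regions took 40.6% to 41.8% in Control and 34.2% to 36.2% in Chd3/4Δβ, and intergenic regions 16.5% to 17.2% and 21.5% to 22.4%, with no overlap in either.

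The gains described first are the 12 largest among called TTS regions whose libraries do not overlap between the groups. They also had a mean of at least 2.84 CPM over the 7 libraries, the median of the class. That floor and the ranking by fold favour regions with a low Control level, so their low level in Control is no finding. Their lack of overlap was fixed by the choice and is no finding either. The region at chr4:43326933-43327562 in Atp8b5, a phospholipid flippase gene, had 0.113, 0.163, 0.0956 and 0.236 CPM in the Control libraries and 11.6, 11.1 and 8.66 CPM in the Chd3/4Δβ libraries. Every Chd3/4Δβ library was far above every Control library, with a log2 fold change of 5.93 ± 0.30 (SE, adjusted p = 1.35e-12). The region at chr5:121623583-121624055 in Acad10, an acyl-CoA dehydrogenase gene, had 0.227, 0.543, 0.191 and 0.424 CPM in the Control libraries and 15.8, 13.7 and 8.66 CPM in the Chd3/4Δβ libraries (log2 fold change 5.15 ± 0.29, adjusted p = 6.6e-12). The region at chr2:166632561-166633096 in Prex1, an activator of the GTPase Rac, had 0.227, 0.326, 0.143 and 0.424 CPM in the Control libraries and 13.4, 9.34 and 8.5 CPM in the Chd3/4Δβ libraries (5.09 ± 0.29, adjusted p = 8.05e-12). In all 3 replicate 3 was the lowest Chd3/4Δβ library.

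The other gains described with their levels were in Opn4, Rhcg and Tfr2. The region at chr14:34591230-34591898 in Opn4, the melanopsin photopigment of the retina, had 0.113, 0.163, 0.478 and 0.424 CPM in the Control libraries and 7.5, 7.18 and 6.13 CPM in the Chd3/4Δβ libraries (4.42 ± 0.31). The region in Rhcg, an ammonia transporter of epithelia, rose from 0.318 ± 0.237 to 6.85 ± 0.168 CPM (mean ± SD, n = 4 and 3) on a log2 fold change of 4.44 ± 0.34. At chr5:137588125-137588695, the 3′ end of Tfr2, a transferrin receptor of liver and erythroid cells, values were 0.908, 0.651, 0.43 and 0.495 CPM in the Control libraries and 11.6, 11.3 and 7.6 CPM in the Chd3/4Δβ libraries (4.09 ± 0.26). The Chd3/4Δβ libraries lay above all Control libraries in each of these, as the choice required. Among the rest of these 12 gains were regions in or beside Ankrd44 (4.98), Muc21, a mucin gene (4.62), Pisd-ps2 (4.59) and Nktr (4.27). The rest also held a region in Ptprs, a receptor tyrosine phosphatase gene (3.88). The region named by Tssk4, a testis kinase gene (4.01), lay outside RefSeq genes and has its name from the nearest TSS. Pisd-ps2 is a pseudogene and Muc21 has repeated coding sequence, so reads there could belong to other copies.

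The losses were chosen in the same way, as the 12 largest without overlap at or above that level. The floor also bounds their level in Control from below. The region at chr13:59599892-59600521 in Naa35, a subunit of an N-terminal acetyltransferase, had 5.84, 6.08, 4.4 and 5.07 CPM in the Control libraries and 0.204, 0.513 and 1.01 CPM in the Chd3/4Δβ libraries, with a log2 fold change of -3.39 ± 0.35 (SE, adjusted p = 4.67e-08). The region at chr4:148455120-148455903 in Mtor, the kinase that couples nutrients to growth, had 11.6, 13.1, 9.61 and 7.59 CPM in the Control libraries and 0.727, 0.795 and 3.88 CPM in the Chd3/4Δβ libraries (-2.73 ± 0.58, adjusted p = 0.00437). In both, replicate 3 was the highest Chd3/4Δβ library, and in Mtor it lay between the other Chd3/4Δβ libraries and Control. The region at chr18:56504202-56504934 beside Gramd2b was the most accessible of these 12 losses, with 17.7, 21.6, 17.9 and 16.7 CPM in the Control libraries and 5.18, 2.64 and 3.1 CPM in the Chd3/4Δβ libraries (-2.32 ± 0.21).

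The other losses described with their levels were in Oprm1, Smg5 and Hipk1. The region in Oprm1, the μ-opioid receptor, fell from 4.38 ± 0.985 to 0.869 ± 0.358 CPM (mean ± SD, n = 4 and 3, log2 fold change -2.41 ± 0.30), and that in Smg5, a factor of nonsense-mediated decay, from 4.86 ± 0.772 to 0.83 ± 0.353 CPM (-2.63 ± 0.29). The region in Hipk1, a homeodomain-interacting protein kinase, fell from 5.69 ± 1.22 to 1 ± 0.194 CPM (-2.53 ± 0.26). The Chd3/4Δβ libraries lay below every Control library in these 3 regions, as the choice required. The others were in or beside St13, an HSP70 co-chaperone gene (-3.06), Scyl3 (-2.52), Mkln1 (-2.48), Mief1, a mitochondrial dynamics factor (-2.46), R3hdm2 (-2.41), and Dct, an enzyme of melanin synthesis (-2.38). Among these 24 gains and losses only the regions of Tfr2, Muc21 and R3hdm2 lay at a RefSeq gene end of known strand.

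**Figure D2:**
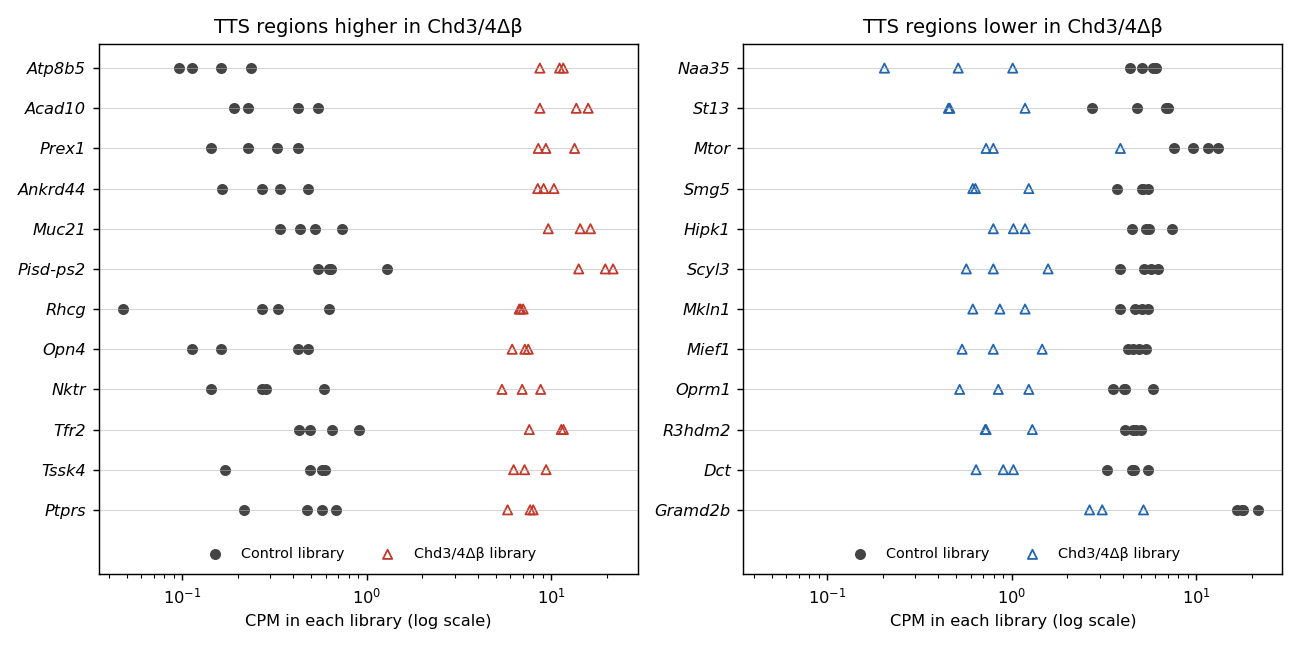
CPM in each library (log scale) for the 12 TTS regions with the largest gains (left) and the 12 with the largest losses (right), among called regions at or above the median level of the class. Filled circles are the 4 Control libraries and open triangles the 3 Chd3/4Δβ libraries, which do not overlap in any row because the regions were chosen so.

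Chd3/4Δβ replicate 3 stood nearest to Control. It was the Chd3/4Δβ library closest to the Control mean in 557 of the 929 regions that rose (60.0%) and in 427 of the 673 that fell. Without it the calls were 964 higher and 742 lower. Chd3/4Δβ replicate 3 was also the smallest library of its group, at 17772951 counts against 44026681 and 38973375 in replicates 1 and 2. Control replicates 1 to 3 had 17629713, 18427566 and 20914104 counts, and Control replicate 4 had 42439029. Among the Chd3/4Δβ libraries only replicate 3 has a lane tag in its column name. The part of library size or tag in this closeness was not tested. Across TTS regions log2 CPM correlated at r = 0.954 to 0.962 within Control, 0.911 to 0.963 within Chd3/4Δβ and 0.510 to 0.643 between the groups. These regions were listed because they differ between the groups and are not independent points.

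The most accessible TTS region that fell, by the mean over the 7 libraries, held the insulin gene Ins2. The region at chr7:142675832-142680525 was the widest TTS region, at 4694 bases, and the only one to contain a whole RefSeq protein-coding gene, Ins2 (chr7:142678656-142679726), which encodes one of the insulins of the mouse. It had 130, 152, 151 and 92.5 CPM in the Control libraries and 32.5, 37.2 and 62.1 CPM in the Chd3/4Δβ libraries, a log2 fold change of -1.59 ± 0.27 (SE, adjusted p = 0.0016). The lowest Control library, replicate 4, was above the highest Chd3/4Δβ library, replicate 3. A listed region nearest to Ins2 and classed as promoter, at chr7:142743091-142743648, fell from 2.81 ± 1.07 to 0.714 ± 0.377 CPM (-1.84, adjusted p = 0.000354). It lies far from both ends of the RefSeq Ins2 gene printed above, so it does not show the start of that gene. The next most accessible losses were in Matn2, a matrix protein gene, at 30.6 ± 1.46 to 10.6 ± 4.41 CPM (-1.55 ± 0.19), and in Impdh1, an enzyme of guanine nucleotide synthesis, at 26.5 ± 4.14 to 9.25 ± 3.14 CPM (-1.54 ± 0.19).

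The 3 most accessible gains by the same mean were in Arhgef19, in Cyb5rl and at the 3′ end of Slc6a13, a transporter of GABA and taurine, which had the highest Chd3/4Δβ mean of them. The Slc6a13 region, chr6:121338019-121338938, had 12.5, 9.17, 12.1 and 12.9 CPM in the Control libraries and 39.4, 36.2 and 41.6 CPM in the Chd3/4Δβ libraries (1.74 ± 0.14, adjusted p = 8.15e-10), and every Chd3/4Δβ library was far above every Control library. Regions in Arhgef19 and Cyb5rl rose from 18.1 ± 1.23 to 36.9 ± 9.52 CPM (1.03 ± 0.15) and 16.3 ± 1.2 to 35.6 ± 1.78 CPM (1.13 ± 0.12). The Arhgef19 call was lost with TMM (0.82) and RLE (0.71) factors and without Chd3/4Δβ replicate 1 (0.99) or 2 (0.85), and the Cyb5rl call with TMM (0.92) and RLE (0.82) factors.

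The 3 most accessible TTS regions of all were not called. The region over the 3′ end of Fos, an immediate early transcription factor, had 226, 198, 200 and 219 CPM in the Control libraries and 90.8, 169 and 131 CPM in the Chd3/4Δβ libraries (-0.69 ± 0.16, adjusted p = 0.00229), with no overlap but a change short of the fold threshold, which RLE factors placed past it (-1.01). The region at the end of Gm11915 held the promoter of the ephrin receptor gene Epha7 and had 130, 138, 132 and 163 CPM in the Control libraries and 87.6, 97.5 and 138 CPM in the Chd3/4Δβ libraries, so that replicate 3 of Chd3/4Δβ overlapped Control. The region at the end of Gm45819, inside Wee1, a kinase that restrains mitosis, had 108, 108, 116 and 116 CPM in the Control libraries and 88.5, 78.4 and 78.5 CPM in the Chd3/4Δβ libraries (-0.45 ± 0.09). Under cyclic loess the differences of the last 2 changed sign (0.14 and 0.02).

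**Figure D3:**
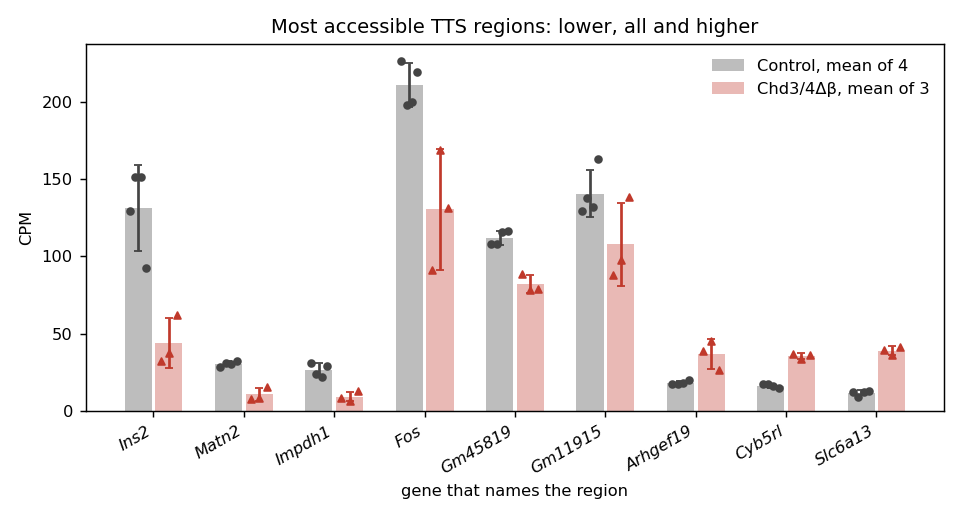
CPM of 9 TTS regions, the 3 with the highest mean over the 7 libraries among those that fell (Ins2, Matn2, Impdh1), among all TTS regions (Fos, Gm45819, Gm11915) and among those that rose (Arhgef19, Cyb5rl, Slc6a13). Bars are means of 4 Control and 3 Chd3/4Δβ libraries, error bars SD and points libraries, and the Ins2 region stands at 131 CPM in Control and 43.9 CPM in Chd3/4Δβ.

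The calls were similar at RefSeq gene ends and inside genes. They differed more beside genes of unknown strand, outside genes and near RefSeq gene starts of known strand. At RefSeq gene ends 190 of 582 TTS regions (32.6%) were higher and 132 (22.7%) lower, and inside genes 559 (32.9%) and 447 (26.3%). Outside genes 131 of 301 (43.5%) were higher and 69 (22.9%) lower, with a median log2 fold change of 0.77 against -0.44 at gene ends and -0.45 inside genes. Intergenic regions as a class had 46.9% higher and 18.5% lower. Beside genes of unknown strand 49 of 145 (33.8%) were higher and 25 (17.2%) lower, with a median of 0.49. Within 2000 bases of the nearest TSS, from 2000 to 10000 and from 10000 to 100000 bases 33.8%, 34.0% and 34.2% were higher and 23.0%, 25.4% and 26.3% lower, and of the 7 farther away 6 were higher. Of the 144 TTS regions within 2000 bases of a RefSeq gene start of known strand 49 (34.0%) were higher and 15 (10.4%) lower, beside 847 (33.9%) and 642 (25.7%) of the 2502 farther from one. The 80 TTS regions on chromosome 18 are in neither set. No gene there had a known strand, so none of them could count as at a RefSeq gene end. These shares are descriptions and the differences between them were not tested.

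TTS regions that held a whole promoter window had higher levels than the others. The 45 with a whole promoter window had a median of 42.9 CPM in Control and 35.1 CPM in Chd3/4Δβ, against 2.64 and 2.99 CPM in the other 2681. Of the 45, 8 were higher, 0 lower and 37 neither, whereas 921 of the others were higher and 673 lower. The Ins2 region, called lower, counts among the others. It contains the whole gene, and so the start of that gene, but no promoter window of the table lies inside it. Strand, which came from these windows, was known for only 27024 of 49993 RefSeq genes. The other TTS regions may therefore hold further promoters, and the 45 are not all that do. Without the fold threshold 11 of the 45 were higher and 34 lower by edgeR, so most had lower values in Chd3/4Δβ by less than the fold asked for. TMM and RLE factors left 5 of the gains, and RLE factors made 1 region lower.

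The printed windows belong to this set. The region over the Shisa7 promoter, chr7:4842496-4845433 at the end of Isoc2b, had 7.49, 9.71, 7.7 and 11.6 CPM in the Control libraries and 30.5, 29.7 and 22.3 CPM in the Chd3/4Δβ libraries (1.58 ± 0.17, adjusted p = 6.2e-08). The region over the Necab3 promoter, at the end of E2f1, had 2.33, 2.6, 3.11 and 2.69 CPM in the Control libraries and 8.31, 8.52 and 5.29 CPM in the Chd3/4Δβ libraries (1.47 ± 0.22), and that of Fuca2, a fucosidase gene, 15.8, 14.3, 14 and 14.8 CPM in the Control libraries and 32.7, 31.3 and 32.5 CPM in the Chd3/4Δβ libraries (1.13 ± 0.12). In all 3 the lowest Chd3/4Δβ library exceeded the highest Control library. The Fam102a region had 88.3, 91.3, 97 and 97.5 CPM in the Control libraries and 69, 63.7 and 56.3 CPM in the Chd3/4Δβ libraries, also without overlap, and its log2 fold change of -0.57 ± 0.10 passed the p threshold (adjusted p = 4.05e-05) and not the fold.

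Width and level went with the calls, as they did over all listed regions. In the 682 narrowest TTS regions (178 to 522 bases) 50.6% were higher and 25.2% lower, and in the 680 widest (1024 to 4694 bases) 17.1% and 20.7%. All listed regions of those widths gave 56.4% and 23.4%, then 18.4% and 14.6%. In the 546 TTS regions with the lowest mean over the 7 libraries (up to 1.35 CPM) 54.0% were higher and 34.2% lower, and in the 545 highest (from 7.19 CPM) 13.03% and 9.73%. All listed regions of those levels gave 58.4% and 29.2%, then 13.98% and 6.05%. A region with few reads must change more to be listed, and the table holds only listed regions.

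**Figure D4:**
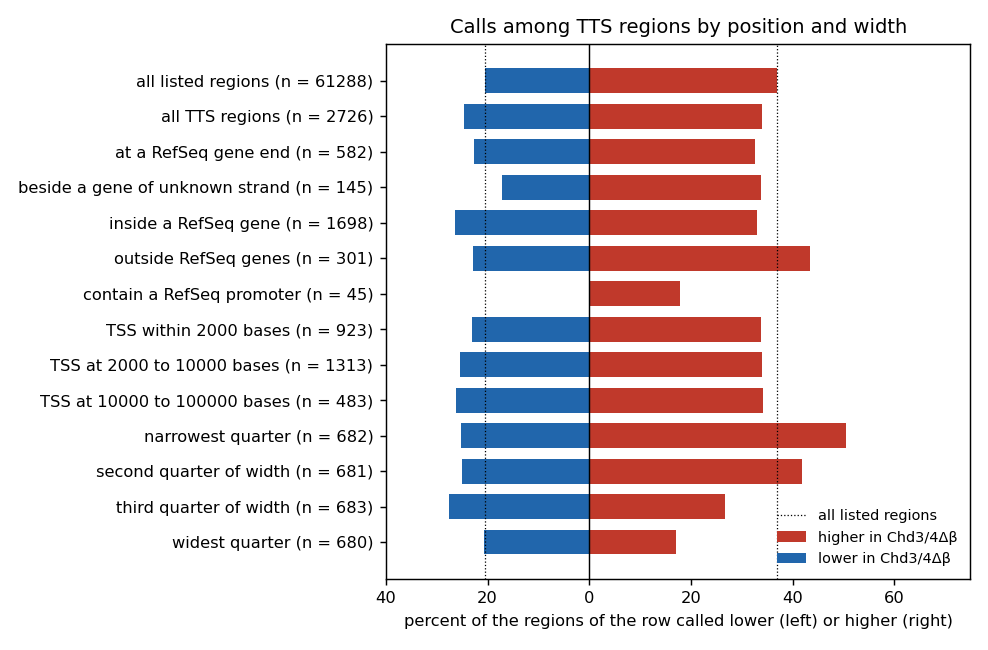
Percent of TTS regions called higher (right) or lower (left) in Chd3/4Δβ by position in RefSeq, by distance to the nearest TSS and by width, with the number of regions in each row. Dotted lines mark the 37.0% and 20.4% of all listed regions. The row of regions that contain a whole RefSeq promoter window has no lower call, and it leaves out the Ins2 region, which holds that gene but no window.

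Gene lists had few members, since a gene enters only where a listed region lies at one of its transcript ends. Beside each count stand the calls among all listed regions nearest to the genes of the list, and the difference between them was not tested. Among potassium channels, which set the membrane potential, 5 of 9 TTS regions rose and none fell (median log2 fold change 1.13, against 0.75 over the 264 listed regions nearest to such genes, of which 109 rose and 48 fell). The region in Kcnj6, an inward rectifier, had 0.567, 0.922, 0.765 and 0.943 CPM in the Control libraries and 7.2, 7.29 and 5.51 CPM in the Chd3/4Δβ libraries (3.03 ± 0.25), and that of Kcnk9, an acid-sensitive leak channel, rose from 0.272 ± 0.0629 to 2.56 ± 0.393 CPM (3.30 ± 0.34). The groups did not overlap in either. Kcna2 (1.58), Kcnk3 (1.27) and Kcnk10 (1.13) also rose, while Kcnd3 (-0.56), Kcnk4 (-0.65) and Kcnn4 (-0.55) were not called. TMM factors left 4 of the 5 gains and RLE factors 3, and by the gene of the nearest TSS the list held 1 gain.

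Calcium and sodium channel genes held gains and losses within single genes. Of 7 TTS regions 4 rose and 2 fell, beside 69 and 29 of 156 listed regions. In Scn8a, a voltage-gated sodium channel of neurons, the region at chr15:101011442-101011702 rose from 0.191 ± 0.0645 to 5.51 ± 1.33 CPM (4.83 ± 0.33) and that at chr15:100974747-100975070 fell from 2.41 ± 0.722 to 0.541 ± 0.126 CPM (-2.10 ± 0.35). The other Scn8a region, at chr15:100969915-100970743, had 7.06 ± 1.2 to 5.21 ± 0.128 CPM and no call (adjusted p = 0.0618). Scn9a, a sodium channel that β cells use, likewise had 1 region that rose (2.23) and 1 that fell (-1.67). The region in Cacnb3, a calcium channel β subunit, had 2.44, 2.5, 2.44 and 1.44 CPM in the Control libraries and 11.8, 10.5 and 9.4 CPM in the Chd3/4Δβ libraries (2.30 ± 0.22).

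Matrix and guidance genes had TTS regions called in both directions. Of 13 TTS regions of collagens, laminins and integrins 9 rose and 1 fell (median 1.25, against 0.93 over 225 listed regions, 105 higher and 31 lower), and of 14 regions of axon guidance genes 8 rose and 2 fell (1.34 against 0.92 over 238, 109 higher and 36 lower). RLE factors left 5 and 7 of these gains. The region in Col1a1, a chain of fibrillar collagen, had 1.02, 0.434, 0.956 and 0.801 CPM in the Control libraries and 9.11, 7.88 and 6.3 CPM in the Chd3/4Δβ libraries (3.27 ± 0.26). The region at chr3:141792084-141792558 in Unc5c, a netrin receptor, had 0.113, 0.163, 0.0956 and 0.189 CPM in the Control libraries and 1.07, 1.8 and 1.29 CPM in the Chd3/4Δβ libraries (3.19 ± 0.39, but -0.03 under cyclic loess), and that at the 3′ end of Sema4d, a semaphorin, fell from 3.44 ± 0.59 to 0.9 ± 0.636 CPM (-2.08 ± 0.35). The groups did not overlap in these 3. Regions in Fn1 (4.28), Vav1 (2.83), Pnlip (2.19) and Eng (2.13), genes of mesenchymal, immune, acinar and endothelial cells, also rose. The endothelial gene Plvap had -0.80 and no call. The summed levels of mesenchymal, immune, acinar and endothelial markers, given above, were also higher in every Chd3/4Δβ library, and their part in these gains was not tested.

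Genes of β-cell function were represented by single regions. Of 4 TTS regions 1 rose and 2 fell, beside 26 and 34 of 138 listed regions. Besides Ins2, the region in Prlr, the prolactin receptor, fell from 3.12 ± 0.416 to 1.15 ± 0.615 CPM (-1.53 ± 0.31), and that in Cpe, the carboxypeptidase that trims prohormones, rose from 1.43 ± 0.523 to 3.88 ± 0.469 CPM (1.41 ± 0.27). Adcyap1r1 had 0.62 with no call. No TTS region belonged to an α-, δ-, PP- or ε-cell gene of the list or to any of the 23 genes that the study names.

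The lists of metabolic and WNT genes had 6 TTS regions each. Of 6 TTS regions of glycolysis and mitochondrial metabolism those of Idh1 (-2.04), Idh2 (-1.28), Ppargc1a (-1.23) and Cs (-1.18) fell and that of Pgk1 rose (1.09), with a median of -1.20 against -0.35 over 149 listed regions, 51 higher and 28 lower. The Idh2 and Pgk1 calls were lost without Chd3/4Δβ replicate 2 (-0.98 and 0.91), and the Pgk1 call also with TMM factors (0.87). In the WNT list 4 of 6 regions fell and none rose (median -1.30, against 0.67 over 145 listed regions, 53 higher and 33 lower), in or beside the receptor genes Fzd8 (-1.84) and Fzd7 (-1.32) and at 2 places in the co-receptor gene Lrp6 (-1.51 and -1.28). The more accessible Lrp6 region had 7.83, 6.57, 6.93 and 7.68 CPM in the Control libraries and 2.2, 2.9 and 2.53 CPM in the Chd3/4Δβ libraries, with the groups apart.

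Chromatin genes and solute carriers were the largest lists. Of 23 TTS regions in 19 genes of chromatin remodellers and modifiers 7 rose and 5 fell (median -0.63, against -0.53 over 300 listed regions, 69 higher and 72 lower), a balance that TMM factors turned to 4 and 9. The region in Chd6, a CHD family remodeller outside NuRD, had 3.18, 3.26, 3.44 and 2.76 CPM in the Control libraries and 0.477, 0.565 and 0.563 CPM in the Chd3/4Δβ libraries (-2.56 ± 0.30). That in Kat6b, a histone acetyltransferase gene, fell from 6.57 ± 0.844 to 1.46 ± 0.638 CPM (-2.23 ± 0.27), and that at the 3′ end of Ep300, another acetyltransferase gene, rose from 0.478 ± 0.287 to 2.01 ± 0.895 CPM (1.97 ± 0.39). Both were without overlap, and the Ep300 call was lost under cyclic loess (0.58). No TTS region belonged to a NuRD subunit. Solute carriers had 45 regions, 20 higher and 6 lower (median 0.69 against 0.43 over 778, 283 higher and 146 lower), and Zfp zinc-finger genes 20, of which 5 were higher and 7 lower, beside 117 and 87 of 412.

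The remaining lists are given as counts. Of TTS regions called higher and lower, cadherins and protocadherins had 3 and 1 of 8 (97 and 24 of the 188 listed regions nearest to these genes), granule and exocytosis genes 2 and 1 of 6 (38 and 36 of 147), and islet transcription factors 1 and 0 of 4 (59 and 15 of 159). ER stress and apoptosis genes had 0 and 1 of 5 (27 and 18 of 91), BMP, TGF-β and Notch genes 2 and 0 of 4 (52 and 23 of 170), FOX and SOX factors 1 and 1 of 5 (59 and 22 of 135), and immediate early genes 1 and 0 of 3 (15 and 3 of 51). Lists of other cell types were small: ductal genes had 2 and 2 of 5 (15 and 4 of 36), glial genes 1 and 0 of 2 (9 and 3 of 26), endothelial genes 1 and 0 of 3 (24 and 7 of 49), and mesenchymal genes 3 and 0 of 3 (23 and 5 of 39). Disallowed genes had 1 and 0 of 2 (32 and 6 of 66), housekeeping genes 2 and 1 of 4 (8 and 10 of 49), histone genes 0 and 0 of 2 (13 and 2 of 53) and microRNA genes 4 and 2 of 21 (252 and 130 of 669). Ribosomal protein genes, matched by symbol and including mitochondrial ones, had 3 and 2 of 12 (37 and 43 of 198). Acinar and immune genes had 1 region each, Pnlip and Vav1, beside 9 higher and 1 lower of 16 and 13 and 1 of 22 listed regions. Hox and snoRNA genes had no TTS region.

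The Mir6413 region had 2.95, 3.31, 3.44 and 3.6 CPM in the Control libraries and 0.409, 1.13 and 1.01 CPM in the Chd3/4Δβ libraries (-2.01 ± 0.32, adjusted p = 1.51e-05), and the Mir6349 region 0.681, 0.814, 0.861 and 0.495 CPM in the Control libraries and 2.68, 2.36 and 1.97 CPM in the Chd3/4Δβ libraries (1.76 ± 0.31). Mir6393 and Mir496b rose by less (1.24 ± 0.21 and 1.19 ± 0.29). The groups did not overlap in the 4 regions, and the Mir6349 call was lost under cyclic loess (0.95). Of the 2726 TTS regions 42 held whole genes for tRNAs, snoRNAs, snRNAs or miRNAs, 52 in all. Of the 42, 8 (19.05%) were higher and 5 (11.9%) lower, beside 37.0% and 20.4% of all listed regions. The 8 with tRNA genes, 17 in all, had no call and ranged from -0.69 to 0.89, beside 57.4% of all listed regions called in either direction. The 3 regions inside Tex14 each held a gene for U3 RNA (Rnu3b2, Rnu3b3 and Rnu3b4) and ranged from -0.63 to -0.58. Such genes have near-identical copies, so their reads may be assigned to the wrong one.

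TTS regions of one gene did not always move together. Of 124 genes with 2 or more TTS regions all regions rose in 18 and all fell in 18, 12 had regions that rose and fell, and the other 76 had at least 1 region not called. In Mga, a partner of MAX, 3 of 4 regions rose, the most accessible of them at chr2:119962557-119963317 with 0.624, 0.651, 0.861 and 0.825 CPM in the Control libraries and 5.5, 4.39 and 4.78 CPM in the Chd3/4Δβ libraries (2.69 ± 0.26). The fourth Mga region had -0.90, not called, but was called lower with TMM (-1.10) and RLE (-1.22) factors, cyclic loess (-1.44) and the replicate block (-1.18), and without Control replicate 4 (-1.02) or Chd3/4Δβ replicate 1 (-1.12) or 2 (-1.12). In Ap1b1, an adaptor subunit of clathrin coats, 3 of 4 regions fell (-1.93, -1.56 and -1.05) and the one at the 3′ end had -0.88. The Ap1b1 call at -1.05 was lost with the replicate block (-0.99) and the depth term (-0.96), and without Control replicate 3 (-0.94) or Chd3/4Δβ replicate 1 (-0.92) or 2 (-0.95). The region at the 3′ end was called lower with TMM (-1.09) and RLE (-1.20) factors, cyclic loess (-1.57) and the depth term (-1.06), and without Control replicate 3 (-1.07) or Chd3/4Δβ replicate 2 (-1.10). In Usp15, a deubiquitinase gene, 2 regions rose (1.26 and 2.60) and 1 fell (-1.97).

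A promoter region and a TTS region of the same gene were compared where both were listed. Most TTS regions lay inside a gene, so a pair need not be the start and the end of that gene. For 655 genes the TTS region with the highest mean CPM was paired with the promoter region with the highest mean CPM among those nearest to the gene. Both had the same call in 61 genes, 48 higher and 13 lower. The calls were opposite in 47, of which 21 had a higher TTS region and 26 a lower one. In 130 genes the TTS region rose and the promoter was not called, and in 144 the TTS region fell and the promoter was not called. The log2 fold changes had the same sign in 403 genes, with Pearson r = 0.13 and a Spearman coefficient of 0.11 across genes, which share libraries and are not replicates.

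The widest differences within a gene ran in both directions. In Mcm10, a replication factor, the TTS region had 1.42, 1.63, 2.06 and 2.03 CPM in the Control libraries and 0.182, 0.18 and 0.394 CPM in the Chd3/4Δβ libraries (-2.97 ± 0.38), and the promoter region rose from 0.565 ± 0.191 to 9.29 ± 1.56 CPM (3.99, adjusted p = 4.46e-11). In Pcca, a mitochondrial carboxylase subunit, the TTS region at the 3′ end fell from 16.3 ± 2.52 to 6.75 ± 2.22 CPM (-1.30 ± 0.21) and the promoter region rose from 0.341 ± 0.195 to 9.34 ± 0.577 CPM (4.59). The pair of Gm4708 had -2.88 at the TTS region and 3.25 at the promoter region. In the other direction, the TTS region of Bphl, a hydrolase gene, rose from 0.448 ± 0.176 to 3.26 ± 0.399 CPM (2.92 ± 0.32) and its promoter region fell from 3.45 ± 0.766 to 1.18 ± 0.293 CPM (-1.58). The 3′ end of Impg2, a proteoglycan of the retina, had 2.78 and its promoter region -1.70, and Gm44850 had 2.57 and -2.42. Of these 6 promoter regions only that of Gm44850 was above 4 CPM in Control, at a mean of 24.3 CPM, and the others may not be the main promoters of their genes.

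**Figure D5:**
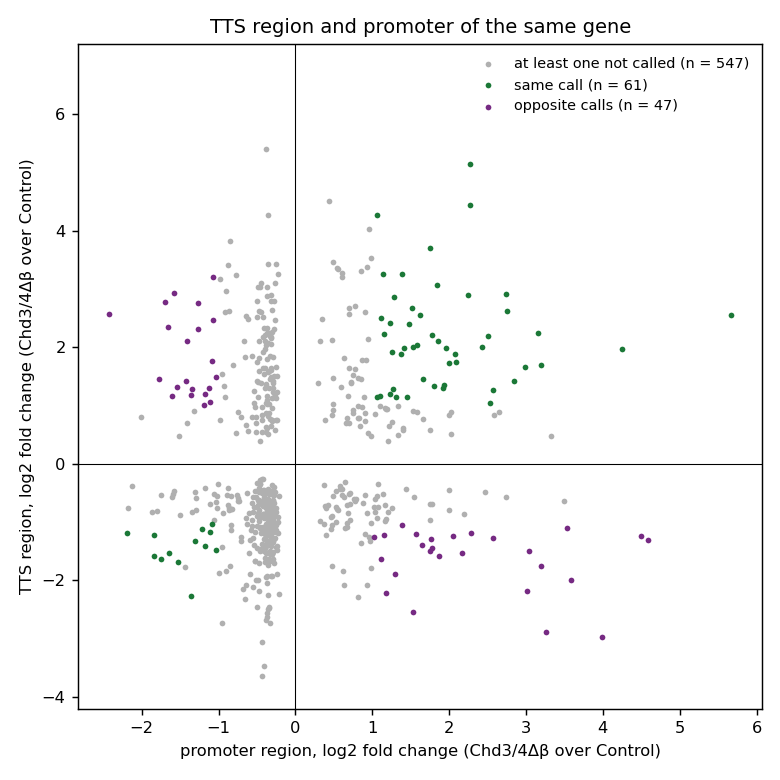
Log2 fold change (Chd3/4Δβ over Control) of the promoter region (x axis) and the TTS region (y axis) of 655 genes. Green points have the same call at both (61), purple points opposite calls (47), and grey points at least 1 region not called.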

How the data were processed

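ATAC-seq libraries of 4 Control and 3 Chd3/4Δβ samples were analysed from 1 table of regions, in which the authors deposited, for each region and library, the read count and the CPM, the count scaled to library size. The authors kept regions at a false discovery rate under 0.05, and their deposited fold changes and p-values were not used. Which aligner, peak caller and counting tool were used is not given in the sources used here, so their effect on a value cannot be stated. The counts were tested with edgeR 4.0.16 (glmQLFit, robust, and glmQLFTest, R 4.3.3) over all 61288 listed regions, with library sizes taken from the ratio of the deposited counts to the deposited CPM, no further filter, and Benjamini-Hochberg adjustment over the 109675 regions the authors tested. Log2 fold changes of the main test are those of the edgeR fit, and a prior count of 2 was not added to them. Each SE was derived from the log2 fold change and its test. The test was tested on simulated data.

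TTS regions, gene lists and tests were chosen with earlier results of these data known. The regions named are the 12 largest called gains and losses without overlap at or above the class median level (1 per gene, unnamed gene models passed over: 8 higher, 1 lower), the 3 most accessible called in each direction and of all, extremes of each list, genes with 3 or more TTS regions, and the 3 widest opposite TTS and promoter pairs in each direction. Alternatives were TMM, RLE, cyclic loess with limma 3.58.1, DESeq2 1.42.0, a mean of at least 1 CPM, no fold threshold, adjustment over listed regions, a replicate block, deep or shallow library as a term, each library left out, and regions over 2000 bases from a TSS.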

Additional observations from a re-analysis of the deposited data

Results flagged for a closer look

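In the Pisd-ps2 region the highest Control library, replicate 3, had 1.29 CPM, against 0.543, 0.624 and 0.636 CPM in the others, and stood apart from them by 0.875 of the group's range. The share of counts in TTS regions was 3.29% in Control replicate 4, the lowest of the group, against 3.50%, 3.51% and 3.54% in the others, a gap of 0.838 of the range. Gaps past Dixon's critical value were looked for in 40 groups of 4 Control values. Chance gives such a gap in about 1 in 20 groups, so 2 such groups are no more than chance alone would give. Control replicate 4 was also the largest Control library, at 42439029 counts against 17629713 to 20914104, and lacks the lane tag of the others. The share was 3.353% and 3.388% in Chd3/4Δβ replicates 1 and 2, with 44026681 and 38973375 counts. It was 3.333% in replicate 3, with 17772951. The part of library size or tag in the low share of Control replicate 4 was not tested.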

How the results depend on the processing

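The 929 higher TTS regions became 578 under cyclic loess and 617 when only regions over 2000 bases from a TSS were kept, and the 673 lower ones became 1032 with RLE factors and 1380 without the fold threshold. Leaving out 1 library gave 910 to 964 higher and 618 to 742 lower. The median log2 fold change of -0.40 became -0.61 with TMM factors, -0.72 with RLE factors and -0.30 under cyclic loess, and was -0.40 to -0.37 without 1 library. The difference in the share of counts, Chd3/4Δβ minus Control, was -0.10 percentage points, -0.157 to -0.0761 without 1 library and 0.0282 over regions beyond 2000 bases from a TSS, the opposite sign. In the gene lists 85 regions were higher and 44 lower, and 56 and 78 with RLE factors. Genes with the same call at TTS and promoter region numbered 60 to 74, and with opposite calls 40 to 51, without 1 library. The cause of these shifts was not tested, beyond the smaller sets and the moved median that the settings themselves imply.

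Of 120 called regions named by the rule 87 kept their call in every alternative. Under cyclic loess 10 named regions changed sign: Gm11915 (0.14), Gm45819 (0.0234), Mga at chr2:119946300 (-0.14), Ubash3a at chr17:31242726 (-0.22), Slc17a6 (-0.0644), Kdm2a at chr19:4349620 (-0.11), Pfkl (-0.24), Col6a1 (-0.36), Reep5 (-0.0167) and Unc5c at chr3:141792084 (-0.0288). Same-numbered replicates did not deviate together (r = 0.102, -0.00988 and -0.0212), and 1 Chd3/4Δβ library correlated best with its own number. With the replicate block 913 regions were higher and 687 lower, and the median was -0.40.

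The listed regions were selected on the same contrast, and only 4 and 3 libraries entered each comparison, with no column tag common to both groups.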
